A study of Mus musculus with 2 samples.

Results

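The receptors through which blood-forming growth factors act on myeloid cells were examined in mouse blood, on 1 array of a heated sample and 1 array of a control sample. The set held 9 genes of the 37325 named on the array, namely Il3ra, Csf2ra, Csf2rb, Csf2rb2, Csf1r, Csf3r, Flt3 and Kit, which encode receptors, and Csf1, which encodes a ligand. Their 19 probes, of 56605 outside the controls, were those that carry one of these symbols in the array files. The genes were selected on these same signals, with their levels and heat minus control differences already known, so their values are descriptions and were not tested. The labels of the heated sample give 38.5 °C for 1 h following a 37 °C water bath of 1 h. For the control no temperature or time was stated, and neither sample came with a strain, genotype or age, nor with word on whether animals or drawn blood were warmed, so heat and handling cannot be told apart. The treatment text speaks of 3 replicates, while each group here is a single array, so no value below has a replicate check or a p-value.

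Cytokines such as IL-3, GM-CSF and IL-5 bind an alpha chain of their own and then recruit a beta chain, which passes the signal to the kinase JAK2 and to the transcription factor STAT5. Csf2rb encodes the beta chain shared by these cytokines, and mice have in Csf2rb2 a further, IL-3-specific beta chain. M-CSF and IL-34 bind the tyrosine kinase receptor encoded by Csf1r, on which monocytes and macrophages depend, G-CSF binds the receptor of neutrophils encoded by Csf3r, and FLT3 and KIT are tyrosine kinase receptors of progenitors, dendritic cells and mast cells.

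The results turn on the IL-3 receptor chains, so the probes that read them are shown as the array files give them, written 5′ to 3′ with coordinates of the mm9 build. Both Il3ra probes lie on the plus strand of chromosome 14, at chr14:15183221-15183280 and chr14:15187898-15187957, at bases 858 and 1287 of the same transcript record, and they do not overlap.
Il3ra probe 1: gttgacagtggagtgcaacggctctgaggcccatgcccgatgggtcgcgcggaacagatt
Il3ra probe 2: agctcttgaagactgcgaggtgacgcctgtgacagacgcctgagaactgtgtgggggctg
No run of 20 bases of either was found in another probe of the array. Both were richer in G and C, with 61.7% in probe 1, than every other probe of the set, which had 35.0% to 55.0%.

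The beta chain genes lie beside each other on chromosome 15 and are close copies, so their probes are shown for how far they can be told apart. The files assign Csf2rb probe 2, at chr15:78179450-78179509, to transcripts of both genes, and its value cannot be given to 1 of them.
Csf2rb probe 2: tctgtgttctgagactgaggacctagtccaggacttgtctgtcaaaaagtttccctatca
Csf2rb probe 3, at chr15:78181168-78181227 on the plus strand, and the only Csf2rb2 probe, at chr15:78113126-78113185 on the minus strand, read like stretches of the 2 genes. Aligned without gaps, the probes overlap over 42 bases and match at 31 of them. The last 30 of these bases, which match at 27, are shown with the differing bases in capitals.
Csf2rb probe 3, bases 31 to 60: gcagatcaaAtgtCccttggtctCtgttca
Csf2rb2 probe 1, bases 13 to 42: gcagatcaaGtgtTccttggtctAtgttca
Counted from 1 at the 5′ end of these stretches, with the Csf2rb base first, the differences are A10G, C14T and C24A. Hybridisation of either probe to the other gene's transcript was not tested.

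The alpha chain gene of the IL-3 receptor was higher in the heated sample, and the beta chain genes stayed close to the control. Il3ra had a mean difference of 0.92 over its probes, heat minus control on the log2 scale after each array was set to its 75th percentile, a fold of 1.89. Csf2rb differed by 0.13 and Csf2rb2 by 0.04. A gene counted as measured where the scanner software set a probe of it clear of background on each array, which 8 of the 9 genes and 13 of the 19 probes met. Of the 8, 7 had values above 0 and 1, Csf1, a value below 0. Over all 18685 genes measured on both arrays, 52.2% lay above 0 and 47.8% below. Il3ra and Kit were at least 0.5 higher, a size that 1.87% of all genes reached in that direction and 4.39% in either. None of the 8 genes was apart by 2-fold or more, as 0.658% of all genes were, with 0.209% higher and 0.45% lower. None was lower by 0.5 or more, as 2.52% of all genes were. Of the 13 measured probes, 3 were at least 0.5 higher and 1, of Il3ra, at least 2-fold higher, beside 2.05% and 0.247% of all measured probes. The median of the 8 was 0.15, beside 0.01 for all genes. No probe of the set was saturated on either array.

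**Figure D1:**
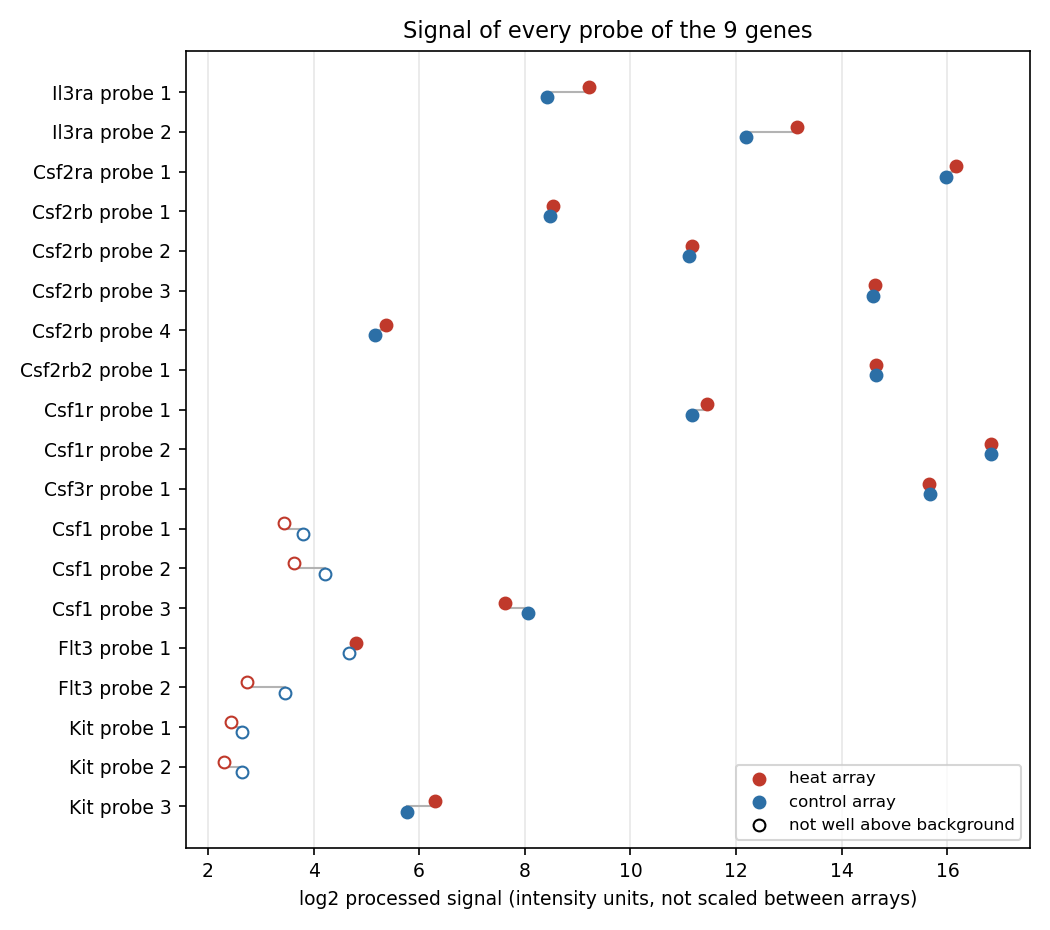
Log2 processed signal of each of the 19 probes (horizontal axis, intensity units before scaling between arrays), in the heat array (red) and the control array (blue), with open circles where a probe was not well above background. The heat points of both Il3ra probes stand clear of their control points, while those of Csf2rb, Csf2rb2 and Csf3r nearly coincide; signals of different probes are not comparable with each other.

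Both probes of Il3ra, which binds IL-3 itself, gave the difference. Probe 1 had a signal of 597 in heat and 344 in control, and probe 2 had 9052 in heat and 4631 in control. The differences were 0.83 and 1.01, folds of 1.78 and 2.01. The heat signal was thus the higher one at both positions of the transcript, and the probes lay 0.17 apart. The SD over the 2 probes was 0.12, beside a median of 0.097 over the 6512 genes with several measured probes. Across repeated spots of single probes, the SD of the difference was 0.116 at log2 signals from 7 to 10 and 0.074 at 10 and above, over 5 and 269 probes, and it covers the error of a spot on these arrays only. Since 2 arrays of bulk RNA were compared, more cells that carry the transcript and more transcript per cell cannot be told apart.

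Of 6512 genes with 2 or more measured probes, Il3ra had the third highest mean difference, and 0.491% had a mean of at least 0.5. It was also 1 of 4 such genes, 0.0614% of them, at which every probe was at least 0.5 higher in heat. The other 3, named after their values were seen, were Spryd3 at 0.74, Neat1, a nuclear long non-coding RNA, at 0.68, and Tns1, which encodes the adhesion protein tensin, at 0.66. Over all measured genes, with 1 probe or more, 49 had a higher difference than Il3ra. The set was chosen with the difference of Il3ra known, so its rank and these shares describe it and do not test it.

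Values that could move with a single spot were read around the Il3ra spots. Within 5 rows and 5 columns of probe 1, the median difference of 61 other detected spots was 0.00, and around probe 2 it was 0.05 over 62 spots. Among 447 measured probes with a G and C content from 58 to 64%, the median difference was 0.03 and 2.68% were at least 0.5 higher in heat. Among probes within 1 log2 unit of the mean level of probe 1, 1.14% were at least 0.5 higher, and 0.281% were among those near probe 2. Over 9 ways of scaling the arrays, the difference of Il3ra ran from 0.83 to 0.92, that of probe 1 from 0.71 to 0.83 and that of probe 2 from 0.93 to 1.02. All these figures describe the same arrays, and with 1 array per group they do not test whether heat changed Il3ra.

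**Figure D2:**
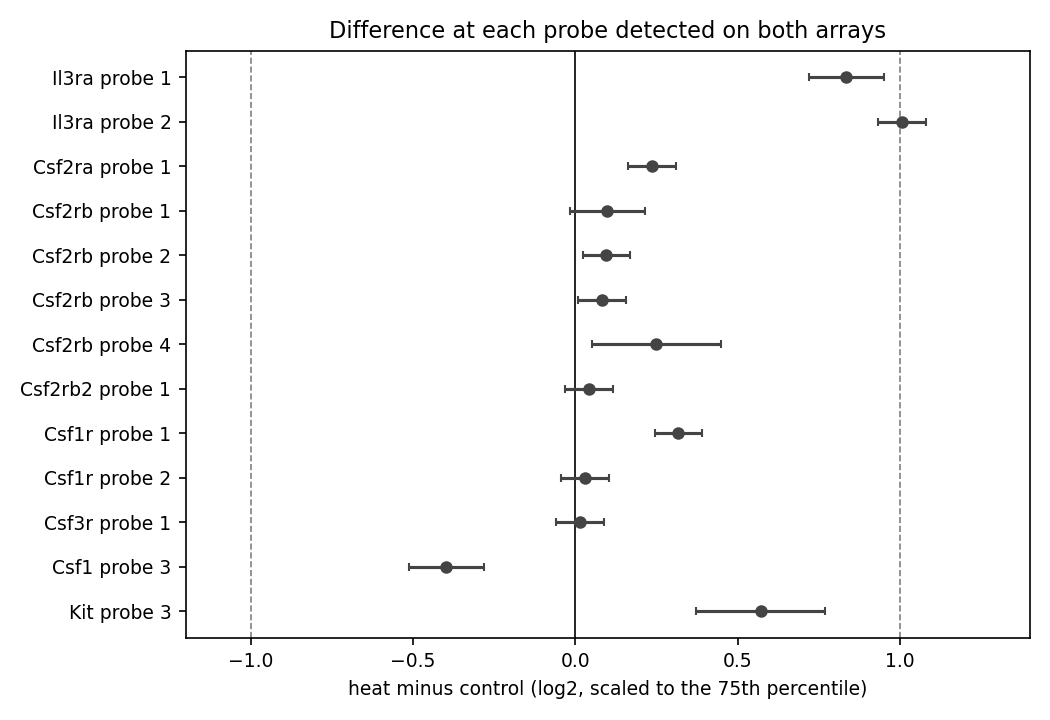
Heat minus control (log2, scaled to the 75th percentile) at each of the 13 probes that both arrays detected, with bars of 1 SD of repeated spots at a like signal and dashed lines at 2-fold. The Il3ra probes stand at 0.83 and 1.01, Kit at 0.57 and Csf1 at -0.40, and the other 9 lie between 0.01 and 0.32.

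The alpha chain of the GM-CSF receptor, Csf2ra, was read by 1 probe on chromosome 19, at chr19:61300336-61300395 on the minus strand. Its signal was 73734 in heat and 64328 in control, a difference of 0.24. That exceeds the SD of repeated spots at this brightness, 0.074, but 1894 of the 18685 measured genes had a higher value, so differences of this size were common between the arrays. It lay above 0 under all 9 scalings, from 0.20 to 0.25.

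The common beta chain gene Csf2rb had 4 probes, of which probes 1 to 3 gave closely alike differences. Probe 1, whose target spans chr15:78176856-78177118, had 372 in heat and 357 in control. Probe 2, shared with Csf2rb2, had 2302 in heat and 2212 in control, and probe 3 had 25458 in heat and 24711 in control. The differences of these were 0.10, 0.10 and 0.08. Probe 4, at chr15:78184049-78184108, belongs to a testis cDNA record and was dim, with 41.4 in heat and 35.8 in control, and differed by 0.25. With probe 4 left out the mean of Csf2rb was 0.09. The SD over the 4 probes was 0.079, beside a median of 0.097 over the 6512 genes with several measured probes. Probes 1 and 2 were below 0 under 3 of the 9 scalings, and the mean of 0.13 shrank to 0.04 and 0.03 with normexp correction.

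Csf2rb2 had the same signal on both arrays to within the error of a spot, 25580.5 in heat and 25531 in control. Its difference of 0.04 is smaller than the SD of repeated spots and was below 0 under 2 of the 9 scalings. The 5 probes of the beta chain genes thus lay between 0.04 and 0.25, and the 2 probes of Il3ra, their partner in the receptor, at 0.83 and 1.01. The difference between the chains was not tested.

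**Figure D3:**
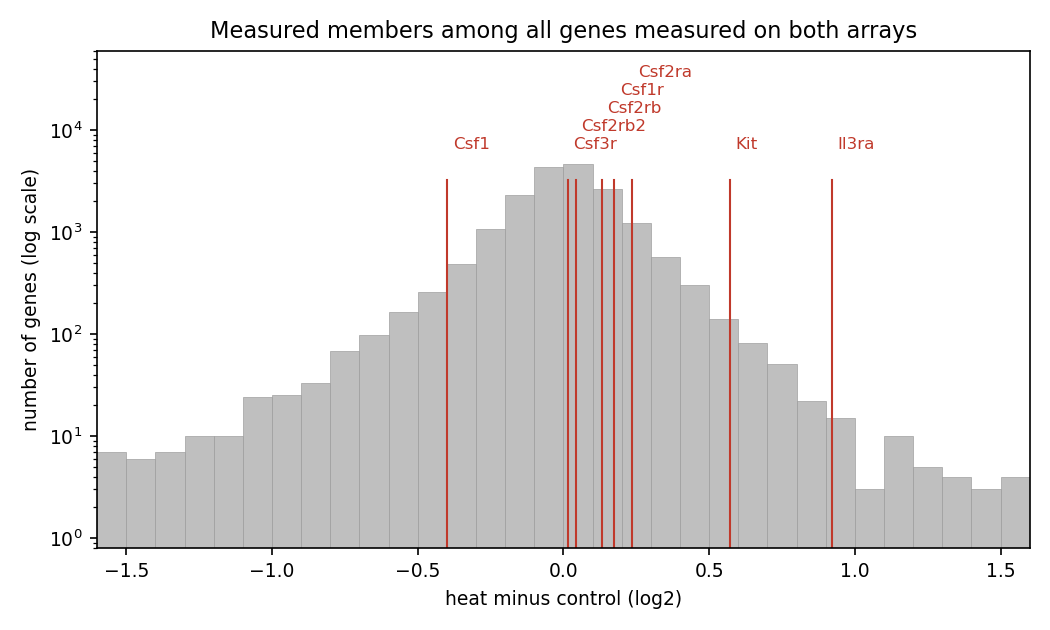
Number of genes (log scale) by heat minus control difference (log2) for the genes measured on both arrays, drawn from -1.6 to 1.6, with red lines for the 8 measured members. Csf2ra, Csf2rb, Csf2rb2, Csf1r and Csf3r stand in the bulk of the distribution, Kit at 0.57 and Il3ra at 0.92 stand in its upper tail, and Csf1 stands at -0.40.

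In the M-CSF system, the receptor gene Csf1r and the ligand gene Csf1 had differences of opposite sign. Csf1r probe 1, at base 1841 of the transcript record, had 2792 in heat and 2302 in control, a difference of 0.32. Probe 2, at base 3806, had 115918 in heat and 116610 in control, a difference of 0.03. The probes of Csf1r thus disagreed by 0.29, with an SD of 0.20 that lies above the upper quartile of 0.17 among genes with several measured probes. The mean of 0.17 rests on probe 1, since probe 2 was above 0 under only 5 of the 9 scalings.

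Csf1, which encodes M-CSF, was detected at 1 of its 3 probes. Probe 3, at chr3:107544333-107544392 on the minus strand, is assigned to transcript variant 1, and had 198 in heat and 268 in control. Its difference of -0.40 was below 0 under all 9 scalings, from -0.44 to -0.30. Probes 1 and 2 are assigned to variant 3, overlap by 31 bases and were not well above background on either array. They had 10.9 and 12.4 in heat and 13.9 and 18.6 in control. The value of Csf1 therefore rests on a single probe, and nothing was measured of variant 3.

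The G-CSF receptor gene Csf3r was read by 1 probe, at chr4:125721478-125721537, with 51463 in heat and 52348 in control. Its difference of 0.01 changed sign with the scaling and lay above 0 under 5 of 9. The last 30 bases of this probe are shown because they are not particular to the gene; the capitals mark the run of 15 bases that occurs most often elsewhere.
Csf3r probe 1, bases 31 to 60: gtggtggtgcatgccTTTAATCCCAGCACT
That run, TTTAATCCCAGCACT, was searched on both strands and found in 11, or 0.0335%, of 32851 promoters of 300 bases in a RefSeq table of the GRCm38.p6 build. Any run of 15 bases of the probe was found in 30 such promoters and in 18 probes of 18 other genes on the array. For the Il3ra probes the counts were 0 and 1 promoters and no other probe. Csf3r was not the highest of the set by promoters. Kit probe 2, which was not well above background, had its most frequent run in 54 promoters, any run in 76, and 1 other probe. As background, the stretch resembles the B1 element, a short interspersed repeat of the mouse genome that many transcripts carry. How much of the Csf3r signal comes from other transcripts was not tested.

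Neutrophil markers bear on this value. Of 12 such genes, Csf3r included, 9 were detected on each array, and Ly6g, which encodes the surface antigen that defines mouse neutrophils, Cxcr2, a chemokine receptor, and Retnlg, a secreted protein of neutrophils, were not well above background on either. The summed signal of the 8 other measured markers was 16.6 in heat and 15.8 in control, in units of each array's 75th percentile signal. All 12 monocyte and macrophage markers were detected on both arrays, with a summed signal, without Csf1r, of 1195 in heat and 1173 in control, and 9 of the 12 lay above 0. The widest, looked up after the values were seen, was Ccr2, the chemokine receptor of inflammatory monocytes, with 113 in heat and 69.9 in control at its single probe, a difference of 0.73. The part of monocytes in the values of Il3ra and Csf1r was not tested.

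Of the progenitor receptors, Kit was measured at 1 dim probe and Flt3 at none. Kit probe 3, at chr5:76052394-76052453, had 78.7 in heat and 54.4 in control, a difference of 0.57. At log2 signals under 7 the SD of repeated spots was 0.199, over 9 probes, and the difference shrank to 0.32 and 0.27 with normexp background correction. Kit probes 1 and 2, of a cerebellar cDNA record that the files name Kit, had 5.43 and 4.96 in heat and 6.27 and 6.24 in control, and were not well above background. With these kept, the mean of Kit was 0.04. Kit is thus the member whose value depends most on the treatment of dim signals.

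Mast cells carry KIT and basophils the IL-3 receptor, and the markers of both were largely missing. Of 10 markers, Cpa3, Mcpt8, Fcer1a, Ms4a2, Cma1 and Hdc were not well above background on either array, and the protease gene Prss34 was detected on the heat array only. The measured ones besides Kit were lower, with Tpsb2, a tryptase gene, at -0.56 and Gata2, a transcription factor of these cells, at -0.84. Their summed signal was 0.29 in heat and 0.45 in control, in the same units as above. Of 10 stem and progenitor markers, 8 were detected in heat and 7 in control, and the summed signal of those measured, without Kit and Flt3, was 3.78 in heat and 4.09 in control. Most of that sum came from Ly6a, with 998 in heat and 936 in control, and Procr, with 971 in heat and 1233 in control.

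Flt3 had no probe well above background on both arrays. Probe 1, of a brain cDNA record, at chr5:148174133-148174192, had 27.8 in heat, where it passed, and 25.6 in control, where it did not. The lowest signal that passed on the control array was 31.0, so no fold was formed. Probe 2, at chr5:148142576-148142635, had 6.70 in heat and 11.0 in control and passed on neither. Of 10 dendritic cell markers, for which Flt3 is a receptor, 7 were detected in heat and 6 in control, and their summed signal without Flt3 was 98.4 in heat and 109 in control. The measured ones at the extremes were Siglech, a lectin of plasmacytoid dendritic cells, at -0.19 and Irf8, a transcription factor of dendritic cells and monocytes, at 0.31. Most of the summed signal came from Siglech, whose 1 measured probe had 41186 in heat and 48409 in control, so the sum mainly reads that gene. Of the 3 probes of Siglech, 1 was well above background in heat and 2 in control. The part of any of these cell types in the difference of Il3ra was not tested.

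The label of blood was also set against lymphocyte markers. The B cell marker genes Ms4a1, which encodes a surface protein, and Cd79a, which encodes a signalling chain of the antigen receptor, did not pass the background test on either array. Cd79b, its partner chain, had 219 in heat and 179 in control, a difference of 0.33, and Cr2, a complement receptor of B cells, had 80.5 in heat and 75.7 in control, a difference of 0.13. Of 10 T cell markers, 9 were on the array and 7 were detected on each, while Cd3g and Cd8a were not. Il7r had 21059 in heat and 22178 in control, and Cd28 had 3313 in heat and 2664 in control. Each rests on 1 of its 2 probes. Cd4, Cd3e, Lck, Cd3d and Cd5 had 267, 158, 82.5, 59.4 and 54.3 in heat and 242, 176, 76.8, 49.8 and 76.1 in control. On the same arrays 53.8% of all probes passed in heat and 52% in control.

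**Figure D4:**
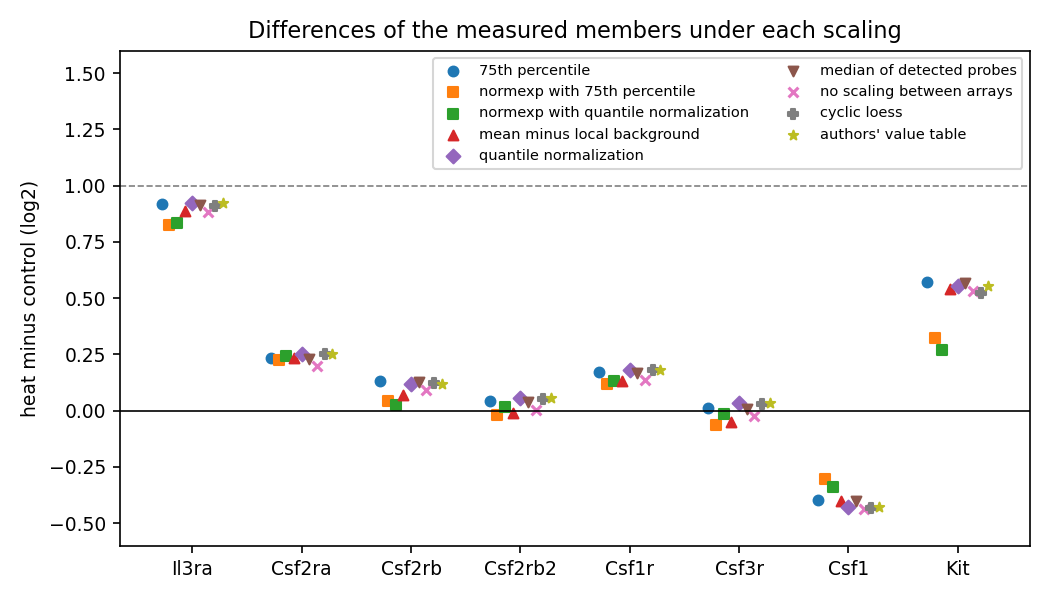
Heat minus control difference (log2, vertical axis) of the 8 measured members under 9 ways of scaling the arrays (symbols), with a dashed line at 2-fold. Il3ra stays between 0.83 and 0.92, Csf3r and Csf2rb2 fall on both sides of 0, and Kit runs from 0.27 to 0.57.

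The ligands of these receptors were mostly not detected. Of 8 ligand genes, Il3, Il5, Csf2, Il34 and Csf3, which encode IL-3, IL-5, GM-CSF, IL-34 and G-CSF, were not well above background at any probe of either array, and 3 were measured, with a median of -0.40. Flt3l, which encodes the FLT3 ligand, was higher at its 3 probes, with 93.2, 794 and 323 in heat and 90.2, 670 and 261 in control, and a mean difference of 0.24. Kitl, which encodes stem cell factor, the ligand of KIT, was lower by the mean of its 3 probes, at -0.93. Its signals were 151, 26.7 and 32.1 in heat and 194, 92.4 and 54.4 in control, and the probes disagreed widely, at -0.32, -1.75 and -0.72. The last values are near the lowest signals that pass, and the mean of Kitl shrank to -0.35 in the scaling that moved it most.

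The signalling genes below the receptors were close to the control. All 14 kinases and STATs of the list were measured, 5 above 0 and 9 below, with a median of -0.04 and none at 0.5 or more. Jak2, the kinase bound to the beta chain, differed by 0.11, Stat5a by -0.23 and Stat5b by -0.09, and Stat3, which acts below the G-CSF receptor, differed by 0.32. The probes of Stat5a disagreed in sign, at -0.53 and 0.07, as did those of Stat5b, at -0.27 and 0.09. Stat3 was at 0.21 with normexp and quantile normalization, and at -0.09 with the probe kept that passed in control but not in heat. Btk, a kinase of B cells and myeloid cells, differed by 0.15. Of 18 adaptors and effectors, 9 lay above 0 and 9 below, with a median of 0.00, and the widest were the docking protein genes Gab3 at -0.25 and Gab2 at -0.22 and the MAP kinase kinase gene Map2k1 at -0.20. Of 12 related receptors, 10 were measured, 4 above 0 and 6 below, with a median of -0.02. The widest were the erythropoietin receptor gene Epor at -0.20, the IL-6 receptor gene Il6ra at -0.15 and Il2rg, the gamma chain of lymphocyte cytokine receptors, at 0.14. The single measured probe of Epor was dim, with 42.1 in heat and 49.6 in control, and the value of Epor was -0.05 with normexp and the 75th percentile and 0.30 with its other probe kept. The probes of Il6ra stood at -0.29 and -0.01, the second being the only one among the brighter 50% of probes. Il5ra, the alpha chain that pairs with the common beta chain for IL-5, did not pass the background test on either array.

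Among genes that restrain or follow these receptors, the widest values were below 0. Of 18 negative regulators, 16 were on the array and 13 were measured, 7 above 0 and 6 below, with a median of 0.04. Socs1, an inhibitor of JAK kinases, had 177 in heat and 266 in control, a difference of -0.55. Sla, an adaptor, differed by -0.15 and Cbl, a ubiquitin ligase that acts on activated receptors, by -0.13, while Socs3 differed by 0.09. Cish, a target of STAT5, did not pass the background test on either array, nor did Socs2 or Sla2. Of 14 response genes, 6 lay above 0 and 8 below, with a median of -0.11 that stayed below 0 under every scaling. Id1, an inhibitor of helix-loop-helix factors, was the only gene of these lists past 2-fold, with 272 in heat and 574 in control, a difference of -1.04 at its single probe. Ccnd1, which encodes cyclin D1, had 17526 in heat and 26868 in control, a difference of -0.58, and Plau, which encodes urokinase, differed by -0.38, or by -0.24 with normexp and the 75th percentile.

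Of 14 transcription factors of the receptor genes, 11 were measured, 5 above 0 and 6 below, with a median of -0.02. Spi1, which encodes PU.1, an activator of many of these receptor genes, differed by 0.05. The widest were Gata2 at -0.84, Hoxa9 at -0.62 and Runx2 at -0.62, all dim, with 35.6, 36.8 and 36.6 in heat and 65.4, 58.2 and 57.6 in control. With normexp correction their differences shrank to as little as -0.27, -0.21 and -0.17. The lists were chosen with results of these arrays known, so these counts describe them and are not evidence of a direction.

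**Figure D5:**
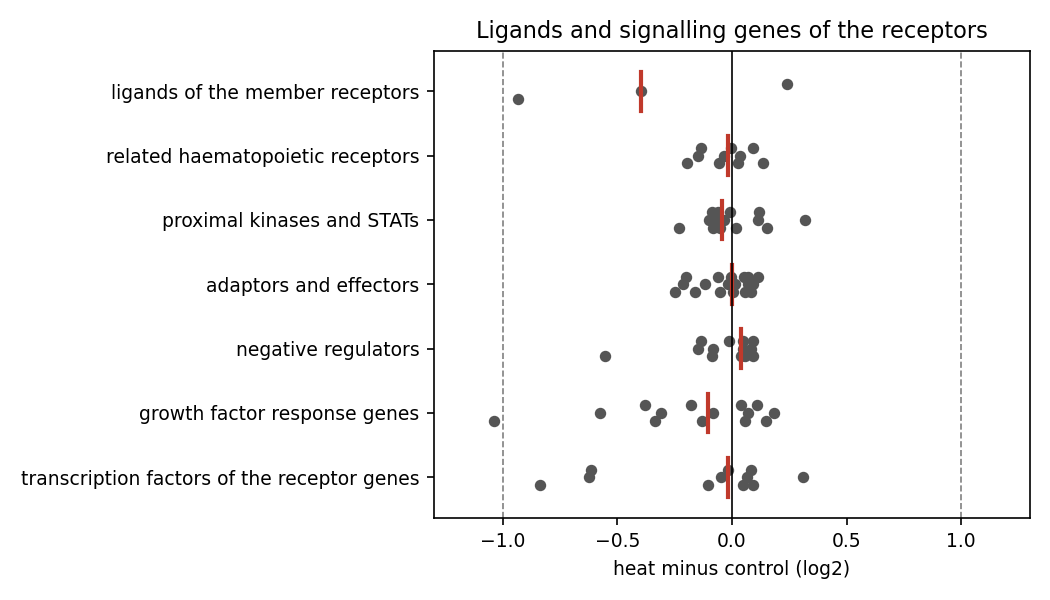
Heat minus control difference (log2, horizontal axis) of each measured gene (grey points) of 7 lists of ligands, receptors and signalling genes, with red bars at the list medians and dashed lines at 2-fold. Most points lie within 0.5 of 0, Id1 alone lies past the line at -1, and Kitl lies at -0.93.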

How the data were processed

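Total RNA of blood, with red and white cells lysed separately, was depleted of globin transcripts and labelled with Cy3, per the labels' protocols. The authors' deposited scanner files hold linear intensity values, read with Agilent Feature Extraction 10.7.1.1 per the file headers, with mm9 probe coordinates; the submitters' processing notes name version 9.1. Their flags for background, saturation and outliers carry a score of 0 or 1. The deposited value table holds log2 values, which had a median of 5.26 on each array, ran in the direction of the scanner signals and gave differences that correlated with theirs at r = 0.997 across probes.

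Outlier spots (168 heat, 149 control) were left out, spots of a probe were averaged after log2, and each array's 75th percentile (604 in heat, 620.5 in control) was subtracted. Differences were averaged per gene over the probes that passed the background flag on each array. Genes outside the set were named through RefSeq records of GRCm38.p6 (32994 of 35886 probes with such a record) or else by the files. All 9 members, their probes and the lists were chosen with earlier results of these data known. Named pathway genes are every ligand, the 3 widest of each other list and 6 preset genes. The undetected negative regulators Cish, Socs2 and Sla2 were named outside this rule. With 1 array a group no test was run, and the number of arrays limits the precision. The 9 scalings were the one above, normexp correction (offset 50) with the 75th percentile or quantiles, mean minus local background, cyclic loess, quantile normalization, no scaling, the median of detected probes and the authors' value table. One B cell marker and the count of its list are not reported here. Only the averaging per gene and the 2-fold cut were tested on simulated differences, with planted changes larger than any difference of the members. The reading of spots and the scaling were not simulated. R 4.3.3, limma 3.58.1, Python 3.11.15 and pandas 2.3.3 were used.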

Additional observations from a re-analysis of the deposited data

How the results depend on the processing

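No paired analysis was possible because each group holds 1 array. The differences of Il3ra, Csf2ra, Csf2rb, Csf1r and Kit stayed above 0 and that of Csf1 below 0 under all 9 scalings; Csf2rb2 and Csf3r changed sign, within the spread of a spot. Il3ra was 0.83 with normexp correction under either normalization and at probe 1 alone, and 1.01 at probe 2 alone, which is also its brightest probe and the one among the brighter 50% of probes. The count of genes at least 2-fold apart, 123, was 37 and 39 with normexp (75th percentile and quantile), 1748 with dim probes kept, 17 among the brighter 50% and 12 at 4-fold. The count at least 0.5 apart, 820, was 270, 272, 4930 and 131 under the first 4 of these. The number of members below 0, 1, was 3 with normexp and the 75th percentile, 2 with normexp and quantile normalization, 3 with mean minus local background, 2 without scaling, 2 with dim probes kept and 0 among the brighter 50%, where Csf1 and Kit drop out. The ligand median, -0.40, was -0.30 with normexp and the 75th percentile, -0.29 with dim probes kept and 0.28 among the brighter 50%, where Flt3l alone was left. Of 70 values of the list medians under alternatives, the other 67 moved by less than the SD of repeated spots, 0.081. With dim probes kept, Epor was 0.30 in place of -0.20 and Stat3 -0.09 in place of 0.32, and among the brighter 50% Stat5b was 0.09 in place of -0.09. Dim signals also limit Kit, Kitl, Gata2, Hoxa9 and Runx2.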
